A study of Mus musculus with 9 samples.

Results

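The genes described here are the semaphorins, ephrins, netrins and slits of the mouse with their receptors, the 4 classical families of guidance cues. They were taken by gene symbol alone, with no expression value used: every gene named Sema, Plxn, Nrp, Eph, Efn, Slit, Robo, Ntn, Unc5 or Dcc with the family's number or letter. This gave 69 of the 23361 genes measured: 20 semaphorins, 11 plexins and neuropilins, 8 ephrins, 14 Eph receptors, 7 slits and Robo receptors, and 9 netrins, Dcc and Unc5 receptors. RNA was sequenced from cells that the labels call melanocyte stem cells, sorted by flow cytometry from the skin of mice aged 10 weeks. There were 9 libraries in 3 groups of 3, labelled Quiescent, Active and UVB (ultraviolet B). All 9 share the genotype TBPT, which the labels do not spell out, so the alleles it stands for are not named here, and no group lacks it. The treatments listed for all samples alike are chemical depilation, a way of starting hair regrowth, and UVB irradiation, and which group received which is stated only as far as the group names do. The groups let cells named Active and UVB be set against cells named quiescent. Neither labels nor protocols give the sort gate, the number of mice behind each library or the time after treatment. The p-values therefore measure the spread between libraries, which may be technical.

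Semaphorins bind plexins, with neuropilins as co-receptors for the secreted forms, and plexins act on small GTPases and the cytoskeleton. Ephrins are tethered to the membrane and bind Eph receptor tyrosine kinases on the neighbouring cell, so that signals pass in both directions at contacts. Slits are secreted ligands of Robo receptors, and netrins bind Dcc, mostly an attractive receptor, and the repulsive Unc5 receptors. Melanocytes descend from the neural crest, whose migrating cells are steered by several of these cues. In skin the same families also pattern nerves and blood vessels, and fibroblasts and endothelial cells make many of the ligands.

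Library totals ran from 21045071 to 35131778 fragments, and levels are given as CPM, counts scaled to a common library total by TMM (a method that assumes most genes unchanged), in the order of replicates 1 to 3. The summed level of 8 markers of the melanocyte lineage (Dct, Tyr, Tyrp1, Pmel, Mlana, Sox10, Mitf and Kit) was 74.3 to 120.2 CPM in Quiescent, 7653 to 12452 in Active and 842 to 1026 in UVB. All 8 were higher in Active and 6 in UVB than in Quiescent, and 7 were lower in UVB than in Active. Sox10, which Schwann cells also make, held a large share of the UVB sum, at 528, 581 and 312 CPM. Mlana and Mitf were not called higher in UVB, at 8.92, 3.9 and 7.33 and 23.8, 19.97 and 38.1 CPM beside 10.2, 6.38 and 2.66 and 47.3, 53.8 and 64 in Quiescent. The sum of 6 fibroblast markers, collagens among them, ran the other way, at 333985 to 450889, 4748 to 6036 and 21806 to 34005 CPM. The Quiescent libraries thus went against their labelled cell type by these markers, although no marker of either list was at 0 throughout a group. The sum of 6 endothelial markers was 326 to 459.6, 18.8 to 23.7 and 159.7 to 264 CPM, that of 4 smooth muscle and pericyte markers 596 to 904, 61.3 to 87.3 and 97.2 to 229, and that of 5 Schwann cell markers 638 to 652, 969 to 1320.2 and 956 to 1152. Myeloid markers (5 genes) summed to 229.5, 1483 and 140.4 CPM in the Quiescent libraries, so that replicate 2 stood apart, to 25.6 to 68 in Active and to 425 to 953 in UVB. Keratinocyte markers (5 genes) reached 1861, 499.9 and 102 CPM in Quiescent, 609 to 950.0 in Active and 214 to 543 in UVB. Hair matrix markers (5 genes) summed to 4.77 to 17.4 CPM in Quiescent, 85.8 to 449.5 in Active, where 4 were higher than in Quiescent, and 14.3 to 52.3 in UVB. T cell markers (4 genes) were at 0.354 to 1.52, 1.38 to 2.21 and 9.08 to 15.6 CPM and mast cell markers (4 genes) at 2.78 to 8.76, 5.15 to 9.97 and 55.4 to 108, and all 8 were higher in UVB than in either other group. Xist, the RNA of the inactive X chromosome, was at 736, 1039.6 and 983 CPM in the UVB libraries and below 0.5 CPM in all others, so sex and the UVB label cannot be told apart in any comparison with UVB. These marker levels moved together with the groups, and their part in the guidance gene differences below was not tested. In bulk RNA, fewer cells of a type and less RNA per cell cannot be told apart.

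After a filter on low counts, 64 of the 69 guidance genes could be tested. In Active against Quiescent, 19 were higher, where 29.1% of the 15078 genes tested were higher, and 21 were lower, where 29.2% of all genes were lower. Of the 64, the shares were thus 29.7% and 32.8%, near those of all genes. In UVB against Quiescent, 18 were higher (28.1%, beside 25.8% of all genes) and 10 were lower (15.6%, beside 23.2%). In UVB against Active, 16 were higher (25%, beside 14.8% of all genes) and 2 were lower (3.12%, beside 9.19%). A call means an adjusted p under 0.05 in edgeR's quasi-likelihood test, with p-values adjusted by Benjamini-Hochberg across the whole table. The median log2 fold change of the 64 was -0.28, 0.24 and 0.35 in the 3 comparisons, and that of all genes 0.01, 0.02 and 0.01. Scaled by library total alone, the median of all genes moved to 0.76 in Active and 0.74 in UVB against Quiescent, and the split of higher and lower guidance genes to 27 and 15 in Active and 38 and 6 in UVB. In UVB against Active, the count of higher guidance genes dropped to 9 without Active 1, 8 without Active 2, 9 without UVB 1 and 10 without UVB 3. Over all genes it dropped from 2226 to 1215, 999, 1395 and 1620 in the same order. The count of lower guidance genes was 1 on leaving out any Active or UVB library, 3 without Quiescent 2 and 5 without Quiescent 3. Over all genes it went from 1386 to between 453 and 1057, to 1459 and to 1678.

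**Figure D1:**
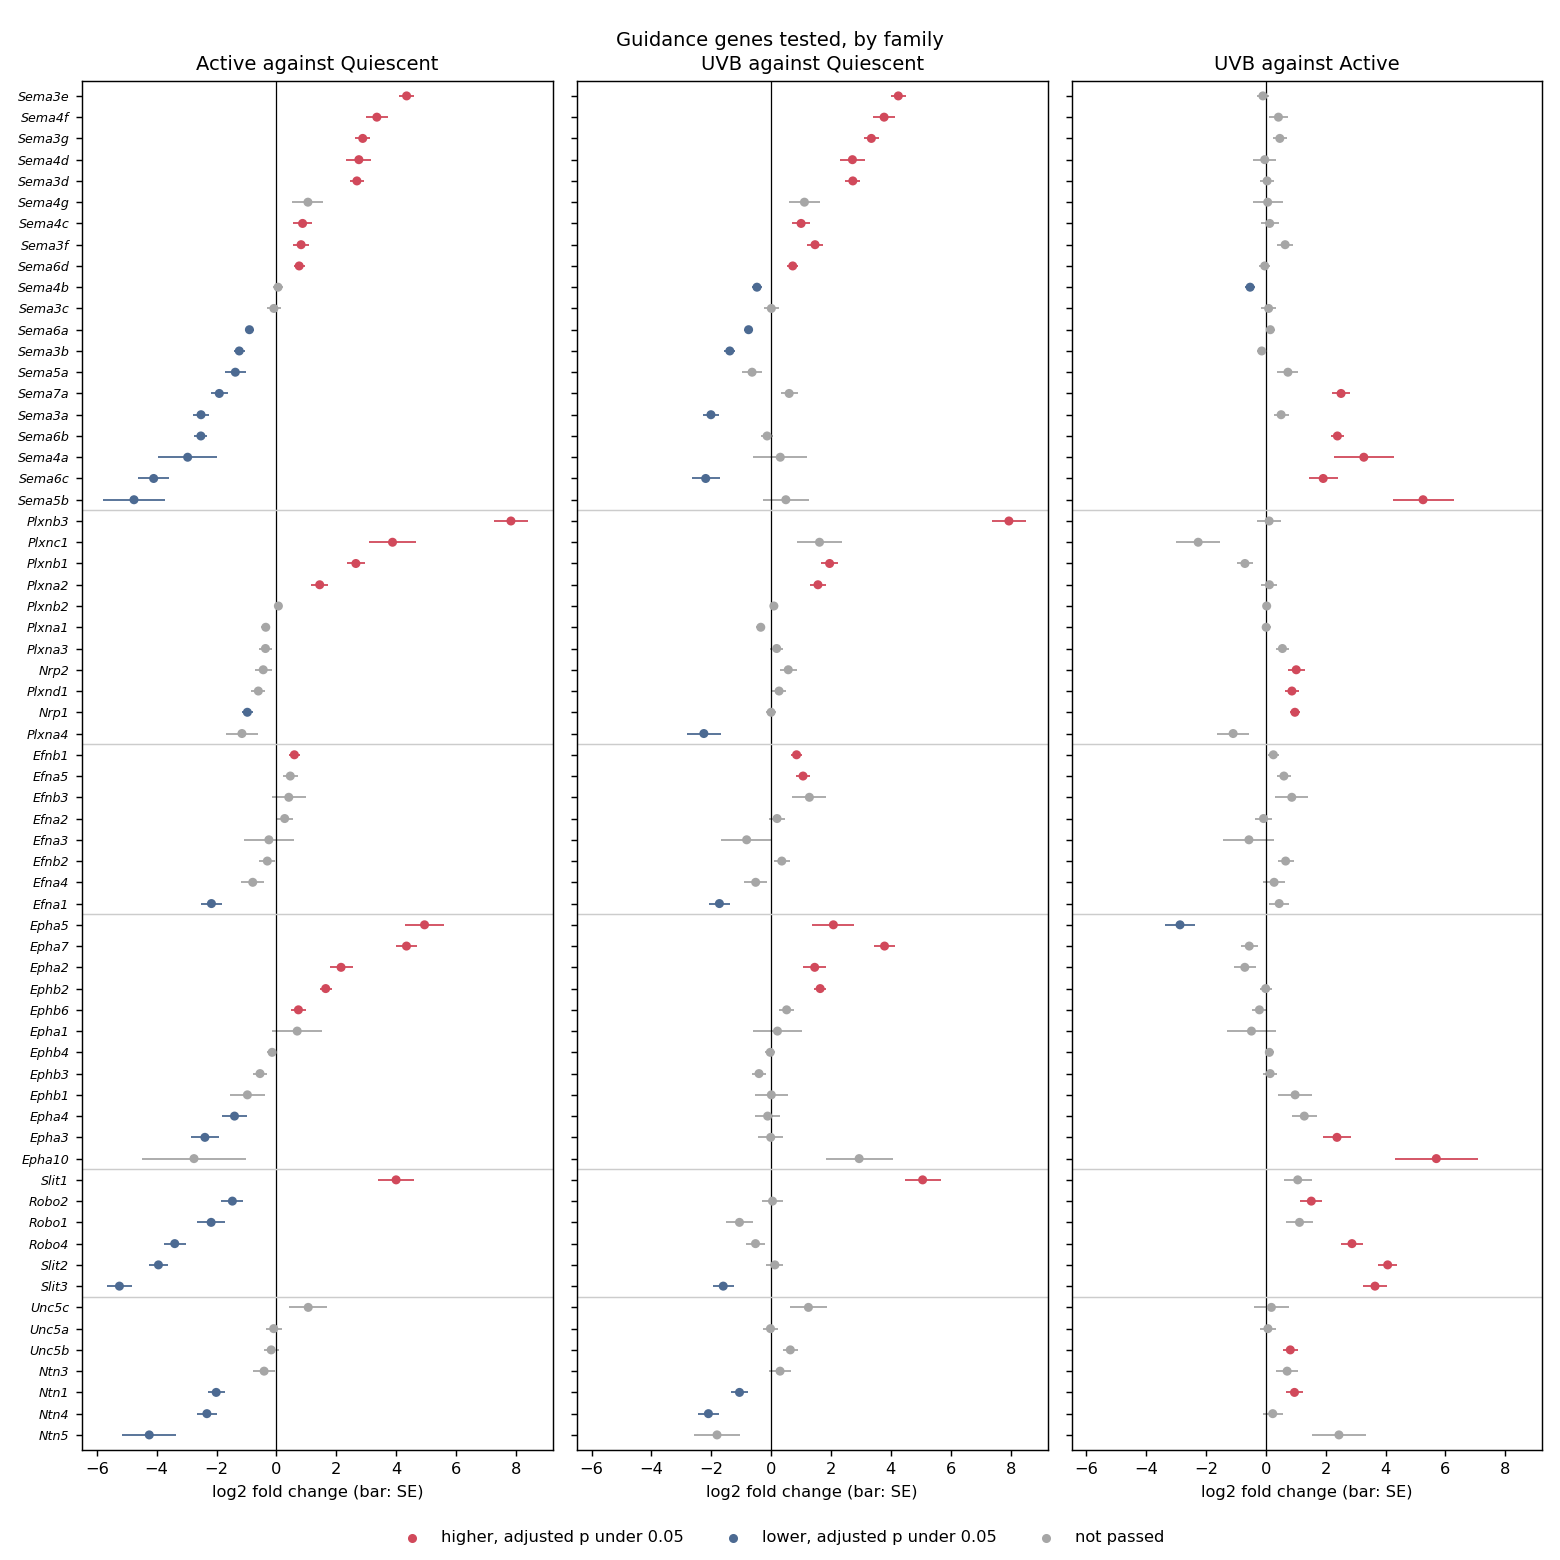
Log2 fold change of each of the 64 tested guidance genes in the 3 comparisons, with the standard error as a bar. Genes are grouped by family and ordered by the first comparison. Plxnb3 lies farthest to the right in both comparisons with Quiescent, and Slit3 farthest to the left in Active against Quiescent.

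The first 2 comparisons share the Quiescent libraries and so are set side by side without a test of their likeness. Sharing them favours calls in the same direction in any set of genes. The matching joint counts over all genes are not given here. The counts below are thus a description and are not read as particular to guidance genes. Against Quiescent, 17 genes were higher and 8 lower in both Active and UVB, and no gene was called in opposite directions. A further 13 passed as lower and 2 as higher in Active and did not pass in UVB, and 9 of the 13 were also higher in UVB than in Active. These 9 were Epha3, Nrp1, Robo2, Robo4, Sema4a, Sema5b, Sema6b, Sema7a and Slit2. Passing in one comparison and not in the other does not itself show a difference, and for these 9 the direct test is that of UVB against Active. That test uses again the Active libraries in which the 9 were low, which favours a higher call. In UVB alone 1 gene passed as higher and 2 as lower. There were 17 genes that passed in none of the 3 comparisons.

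Levels of different genes can be compared only per transcript length, for which the authors' FPKM (fragments scaled by transcript length and library size) were used. Sema3b, a secreted semaphorin, had the highest FPKM of the 69 genes in every group, at 157 ± 18.7 (mean ± SD, n = 3) in Quiescent, 67.9 ± 13.7 in Active and 61.1 ± 7.78 in UVB. In Quiescent it was followed by Slit3 at 77.4 ± 3.71 FPKM, Sema3c at 54.4 ± 15.5, Ntn1 at 50.8 ± 14.9 and Ntn4 at 35.9 ± 8.64. The range of Slit3 overlapped neither that of Sema3b nor that of any gene below it, whereas Sema3c and Ntn1, and Ntn1 and Ntn4, overlapped. In Active the next were Sema3c at 51.1 ± 5.99 FPKM, Sema4c at 41.5 ± 10.02, Sema3d at 33.8 ± 6.02 and Sema3g at 32.3 ± 6.39, a row of neighbours whose SDs overlapped. UVB had the same 5 genes on top, with Sema3c at 54 ± 16.4, Sema4c at 45 ± 9.99, Sema3g at 44.2 ± 5.84 and Sema3d at 34.4 ± 1.83 FPKM. Slit3, Ntn1 and Ntn4 were thus among the first 5 in Quiescent alone.

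Secreted semaphorins, which diffuse from the cells that make them, split in the same way in both comparisons with Quiescent: of 7 tested, 4 were higher (Sema3d, Sema3e, Sema3f and Sema3g), 2 were lower (Sema3a and Sema3b) and Sema3c did not pass. The shares of all genes called in these directions were 29.1% and 29.2% in Active and 25.8% and 23.2% in UVB. In UVB against Active edgeR and DESeq2 called 0 of the 7, and 1 had an unadjusted p under 0.05. Sema3e, a ligand that binds plexin D1 without a neuropilin, stood at 2.78, 3.4 and 4.37 CPM in the Quiescent libraries, at 65.8, 77.3 and 70.6 in Active and at 59.5, 87.1 and 52.5 in UVB. All 6 Active and UVB libraries lay above all Quiescent libraries, and the level was 20.4-fold higher in Active (log2 fold change 4.35 ± 0.25 SE, adjusted p = 4.7e-06) and 19-fold higher in UVB (adjusted p = 8.1e-06). Sema3g, best known from blood vessels, was at 21.4, 15 and 11.2 CPM in Quiescent, 99.2, 109 and 145 in Active and 149, 183 and 154 in UVB. It did not overlap either, and rose 7.38-fold in Active (log2 fold change 2.88 ± 0.25 SE, adjusted p = 2.5e-05) and 10.2-fold in UVB (adjusted p = 2.9e-05). Sema3d, known from the outgrowth of nerves and the heart, was at 33.7, 23.5 and 46.5 CPM in Quiescent, 231, 178 and 259.8 in Active and 216, 231 and 241 in UVB. Its rise was 6.45-fold in Active (adjusted p = 3.4e-05) and 6.63-fold in UVB (adjusted p = 6.2e-05), again with no overlap. Sema3f, a neuropilin-2 ligand, rose less, with a log2 change of 0.82 ± 0.27 in Active (adjusted p = 0.026) and 1.47 ± 0.27 in UVB (adjusted p = 0.0022). The Active call for Sema3f was lost without Quiescent replicate 2 or 3 or Active replicate 1 or 3, with adjusted p between 0.056 and 0.086. Sema3f also passed in UVB against Active without Quiescent 1 (log2 fold change 0.64, adjusted p = 0.035, against 0.11 with all libraries).

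Sema3a, the neuropilin-1 ligand that repels axons, moved the other way. It was at 51.8, 70.5 and 63.7 CPM in Quiescent, 14.2, 7.87 and 10.3 in Active and 15.6, 11.4 and 19 in UVB, with the Quiescent libraries above all others. The level was 5.74-fold lower in Active (log2 fold change -2.52 ± 0.26 SE, adjusted p = 6.6e-05) and 4.04-fold lower in UVB (adjusted p = 3.4e-04). Sema3b, the gene of the highest level, was at 543, 504 and 425 CPM in Quiescent, 204, 166 and 253 in Active and 168, 209.7 and 187 in UVB. It fell 2.37-fold in Active (log2 fold change -1.24 ± 0.18 SE, adjusted p = 3.5e-04) and 2.61-fold in UVB (adjusted p = 3.3e-04), and no library of Quiescent overlapped the others. Sema3c, a secreted ligand of neuropilins and plexins, was at 198, 259 and 349.9 CPM in Quiescent, 236, 286 and 239 in Active and 234, 357 and 218 in UVB, and the groups overlapped. Its log2 fold change was -0.08 ± 0.24 in Active and 0.00 ± 0.24 in UVB (adjusted p = 0.79 and 0.99). With library totals alone as the scale it read 0.68 in Active and 0.74 in UVB (adjusted p = 0.025 and 0.019).

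Some neighbouring guidance genes moved in opposite directions, and others did not. On chromosome 5 Sema3a lies between Sema3d, 536.5 kb away, and Sema3e, 422.7 kb away, with no other of the 69 genes between them. On chromosome 9 Sema3b, which fell, and Sema3f, which rose, lie 72.3 kb apart. The promoters of the chromosome 5 trio and of Plxnb3, the gene with the largest change, are printed so that the letters behind these values can be read, as a set chosen after the values were seen. Each is the stretch upstream of a RefSeq transcript start (GRCm38.p6, plus strand, without the last 20 bases before the start). Those of Sema3a and Plxnb3 belong to a start inside the longer RefSeq gene. Capitals mark, on either strand, the E-boxes CACGTG and CATGTG, the SOX core forms ACAAAG and ACAATG, and the AP-1 site TGANTCA, so that a site on the other strand is printed as its complement.
Plxnb3, chrX:73756853-73757082: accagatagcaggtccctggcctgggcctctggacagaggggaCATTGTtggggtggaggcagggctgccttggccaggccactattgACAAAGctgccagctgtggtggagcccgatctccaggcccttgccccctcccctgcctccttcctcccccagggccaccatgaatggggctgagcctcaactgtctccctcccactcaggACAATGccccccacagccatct
Sema3d, chr5:12382916-12383145: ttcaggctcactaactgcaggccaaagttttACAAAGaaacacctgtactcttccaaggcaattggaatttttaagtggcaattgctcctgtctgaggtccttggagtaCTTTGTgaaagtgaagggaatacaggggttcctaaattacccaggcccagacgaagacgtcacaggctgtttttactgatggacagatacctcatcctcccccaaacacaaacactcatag
Sema3a, chr5:13396534-13396763: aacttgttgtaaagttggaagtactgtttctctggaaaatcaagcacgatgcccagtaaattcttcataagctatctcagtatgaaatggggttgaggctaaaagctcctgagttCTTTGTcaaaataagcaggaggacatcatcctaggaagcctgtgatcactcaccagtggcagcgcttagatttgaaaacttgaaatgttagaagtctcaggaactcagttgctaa
Sema3e, chr5:14025026-14025255: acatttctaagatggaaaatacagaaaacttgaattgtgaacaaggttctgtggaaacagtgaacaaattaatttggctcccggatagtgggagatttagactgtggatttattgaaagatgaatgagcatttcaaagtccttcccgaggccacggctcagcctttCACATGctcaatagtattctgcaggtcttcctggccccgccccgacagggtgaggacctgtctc
The Plxnb3 stretch held 1 ACAAAG and 2 ACAATG sites, that of Sema3d 2 ACAAAG sites, that of Sema3a 1 ACAAAG site, and that of Sema3e 1 CATGTG site. Of the 59 guidance genes with a promoter in the table, 7 held ACAAAG within 250 bases upstream, or 11.9%, beside 17.2% of 16344 genes. ACAATG was found in 7 of the 59 (beside 10.5% of all genes), CACGTG in 4 (beside 7.86%), CATGTG in 3 (beside 11.45%) and TGANTCA in 3 (beside 7.36%). Among the 15 that were higher in both comparisons, 4 held ACAAAG (26.7%), 2 ACAATG (13.3%), 2 TGANTCA (13.3%), 1 CACGTG (6.67%) and 1 CATGTG (6.67%). Among the 5 that were lower in both, 2 held ACAATG (40%), 1 held ACAAAG (20%) and none held the other motifs. Matches to such short motifs are a description and no evidence of binding.

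The 13 membrane-bound semaphorins, which act at cell contacts, split 4 higher to 7 lower in Active against Quiescent (29.1% and 29.2% of all genes) and 4 to 3 in UVB against Quiescent (25.8% and 23.2%). The same 4 genes were higher in both: Sema4c, Sema4d, Sema4f and Sema6d. Sema4f was at 2.7, 2.21 and 3.07 CPM in Quiescent, 16.5, 24.5 and 40.9 in Active and 47.6, 30.6 and 31.1 in UVB, so that every Active and UVB library exceeded every Quiescent one. It rose 10.2-fold in Active (log2 fold change 3.36 ± 0.36 SE, adjusted p = 7.7e-05) and 13.7-fold in UVB (adjusted p = 8.4e-05). Sema4d, the ligand of plexin B1, was at 3.71, 3.99 and 1.18 CPM in Quiescent, 15.3, 21.7 and 23.5 in Active and 23.4, 21.1 and 14.3 in UVB, with no overlap, and rose 6.75-fold (adjusted p = 5.1e-04) and 6.57-fold (adjusted p = 8.5e-04). Sema6d, a plexin A1 ligand, rose with a log2 change of 0.76 ± 0.18 in Active (adjusted p = 0.0062) and 0.72 ± 0.18 in UVB (adjusted p = 0.01). Sema4c, a plexin B2 ligand, rose with a log2 change of 0.87 ± 0.31 in Active (adjusted p = 0.037) and 1.0 ± 0.31 in UVB (adjusted p = 0.026), but its Active libraries overlapped Quiescent. The Sema4c calls were lost on leaving out any of 5 libraries in Active (Quiescent 1 or 3, Active 2 or 3, UVB 1; adjusted p up to 0.11) and of 4 in UVB (Quiescent 1 or 3, UVB 1 or 2; up to 0.081).

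In UVB against Active, 5 of the 13 membrane-bound semaphorins were higher (14.8% of all genes) and 1 was lower (9.19%). The 5, Sema4a, Sema5b, Sema6b, Sema6c and Sema7a, were all among the 7 lower in Active than in Quiescent. Those 7 were low in the Active libraries that this comparison uses again, which favours a higher call. Sema7a, an anchored ligand of plexin C1 and of integrins, was at 33.2, 31.5 and 19.4 CPM in Quiescent, 6.51, 5.91 and 10.02 in Active and 41.6, 32.5 and 53.7 in UVB libraries. The Active libraries lay below all others, 3.76-fold below Quiescent (log2 fold change -1.91 ± 0.29 SE, adjusted p = 5.5e-04), and UVB was 5.7-fold above Active (adjusted p = 0.0012). Sema6b, a ligand of A-type plexins, was at 10.3, 10.8 and 8.03 CPM in Quiescent, 1.93, 1.45 and 1.68 in Active and 8.79, 7.95 and 9.82 in UVB. Quiescent and UVB overlapped, while Active was 5.75-fold below Quiescent (log2 fold change -2.52 ± 0.21 SE, adjusted p = 2.2e-05) and UVB 5.23-fold above Active (adjusted p = 5.4e-04). Sema6c was at 35.4, 28.4 and 28.8 CPM in Quiescent, 0.904, 2.07 and 2.45 in Active and 6.52, 3.01 and 10.8 in UVB, and here all 3 groups were apart. It was 17.2-fold lower in Active (log2 fold change -4.10 ± 0.51 SE, adjusted p = 1.8e-04), 4.56-fold lower in UVB (adjusted p = 0.0046) and 3.77-fold higher in UVB than in Active (adjusted p = 0.023), the last being lost without Active 1 or 2 or UVB 1 or 3 (adjusted p up to 0.072).

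Sema5b was at 2.15, 1.31 and 1.77 CPM in Quiescent, 0.0623, 0 and 0.123 in Active and 1.17, 0.788 and 5.43 in UVB. Active lay below every other library, 27.1-fold below Quiescent (log2 fold change -4.76 ± 1.02 SE, adjusted p = 0.0036) and 45.8-fold without Active replicate 3. UVB was 38.1-fold above Active (adjusted p = 0.0088), 62.8-fold without Active 3 and 15.1-fold without UVB 3. Sema4a, known from immune cells, was at 8.99, 62.9 and 2.36 CPM in Quiescent, 3.71, 3.95 and 1.76 in Active and 36.2, 22.8 and 32.4 in UVB. Quiescent replicate 2, the library with the highest myeloid marker sum, held most of the Quiescent level. The fall in Active (log2 fold change -2.97 ± 0.99 SE, adjusted p = 0.029) shrank from 7.82-fold to 1.82-fold without it (adjusted p = 0.21), was lost whichever Active library was left out (up to 0.089), and read adjusted p = 0.066 with library totals alone. Without Quiescent 2, UVB passed as higher than Quiescent (log2 fold change 2.40, adjusted p = 0.011). UVB was 9.65-fold above Active (adjusted p = 0.044), and this too was lost whichever of these 6 libraries was left out (up to 0.12). Sema5a, a relative with thrombospondin repeats, was at 55.9, 57.7 and 40.7 CPM in Quiescent and 23.6, 13 and 22.9 in Active and fell with a log2 change of -1.37 ± 0.35 (adjusted p = 0.0091), which library totals alone did not call (adjusted p = 0.14). In UVB it was at 30.7, 19 and 49.3 CPM and passed as lower without UVB 3 (adjusted p = 0.026). Sema6a fell with a log2 change of -0.90 ± 0.16 in Active (adjusted p = 0.0013) and -0.76 ± 0.16 in UVB (adjusted p = 0.0046), and neither call was made with library totals alone (adjusted p = 0.47 and 0.87).

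Sema4b and Sema4g complete the class. Sema4b was at 24.2, 27.2 and 19.7 CPM in Quiescent, 28.7, 21 and 24.1 in Active and 18.8, 15.8 and 16.4 in UVB libraries, which lay lowest. UVB fell with a log2 change of -0.48 ± 0.17 from Quiescent (adjusted p = 0.042) and of -0.53 ± 0.17 from Active (adjusted p = 0.0494). The first was kept only when the library left out was Quiescent 3, Active 1 or Active 2 (otherwise adjusted p up to 0.13) and turned to 0.24 with library totals alone, and the second only when it was Quiescent 2 or 3 (otherwise up to 0.17). Sema4g passed in no comparison, with log2 fold changes of 1.05 and 1.11 against Quiescent (adjusted p = 0.11 and 0.11), and passed as higher in both without UVB 2 (adjusted p = 0.047 and 0.025).

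**Figure D2:**
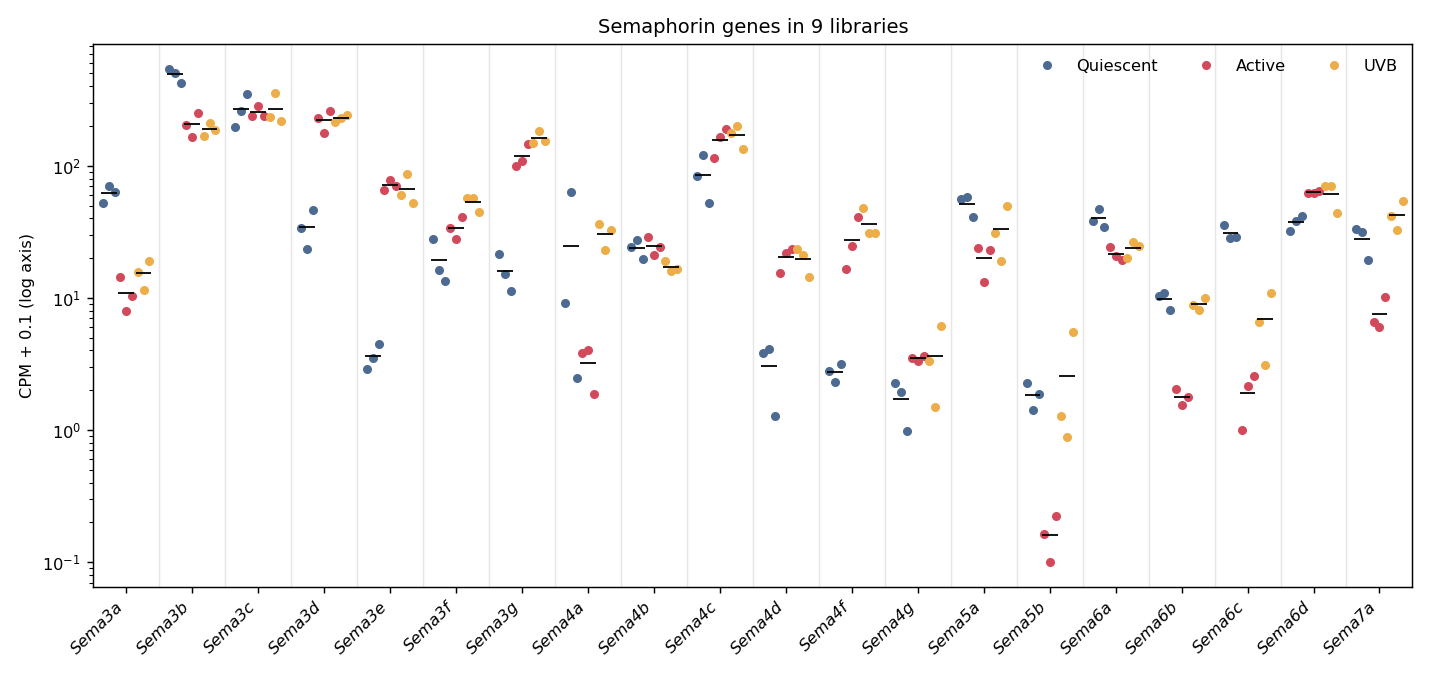
Level of the 20 semaphorin genes in each of the 9 libraries, in CPM plus 0.1 on a log axis, with a black line at the mean of each group. Sema3d, Sema3e, Sema3g and Sema4f lie higher in all Active and UVB libraries than in Quiescent, and Sema5b, Sema6b, Sema6c and Sema7a lie lowest in Active.

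Plexins carry the semaphorin signal into the cell. Of 9 tested, 4 were higher in Active (Plxna2, Plxnb1, Plxnb3 and Plxnc1; 29.1% of all genes were higher and 29.2% lower). EdgeR called 0 lower, where 2 had an unadjusted p under 0.05 and DESeq2 called 2 lower (Plxna4 and Plxnd1). In UVB against Quiescent, 3 were higher and Plxna4 lower, beside 25.8% and 23.2% of all genes. Plxnb3, a receptor of Sema5a whose promoter is printed above, stood at 0.626, 1.55 and 0.236 CPM in Quiescent, 117, 156 and 270.4 in Active and 212, 222 and 151 in UVB. It was all but missing from Quiescent, and the lowest Active or UVB library exceeded the highest Quiescent one many times over. The rise was 229-fold in Active (log2 fold change 7.84 ± 0.58 SE, adjusted p = 1.3e-05) and 246-fold in UVB (log2 fold change 7.94 ± 0.58 SE, adjusted p = 2.4e-05). Without Quiescent replicate 2, these became 389.9-fold and 419-fold. UVB against Active did not pass (log2 fold change 0.11 ± 0.40, adjusted p = 0.87). Plxnb3, Plxna3 and Efnb1 are on the X chromosome.

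Plxnc1, the receptor of Sema7a, was at 3.05, 16.7 and 1.06 CPM in Quiescent, 137, 82.8 and 83.6 in Active and 21.2, 17.5 and 24.4 in UVB. Active lay above every other library, and Quiescent replicate 2 lay well above the other Quiescent libraries. The rise in Active was 14.7-fold (log2 fold change 3.88 ± 0.80 SE, adjusted p = 0.0029) and 47.4-fold without Quiescent 2. UVB against Quiescent did not pass (log2 fold change 1.61 ± 0.75 SE, adjusted p = 0.1). It passed without that library (log2 fold change 3.30, adjusted p = 8.2e-04), with library totals alone (adjusted p = 0.029) and with limma on log2(FPKM + 1) or log2(FPKM + 0.1) (adjusted p = 0.03 and 0.03). UVB against Active missed the threshold as well (log2 fold change -2.26 ± 0.73 SE, adjusted p = 0.054), and passed without Quiescent 2 or 3 (adjusted p = 0.0033 and 0.017), libraries that are in neither group compared. It also passed with only the 6 libraries compared (adjusted p = 0.0018) and with limma on both FPKM scales (adjusted p = 0.0086 and 0.045). DESeq2 gave Plxnc1 no adjusted p in Active against Quiescent. The mean of Plxnc1 was highest in Active, and that of its ligand gene Sema7a was lowest there. Plxnb1, the Sema4d receptor, was at 14.1, 9.83 and 5.31 CPM in Quiescent, 56.4, 63.1 and 65.8 in Active and 38.9, 34 and 41 in UVB, without overlap. It rose 6.3-fold (log2 fold change 2.66 ± 0.30 SE, adjusted p = 9.3e-05) and 3.87-fold (adjusted p = 7.2e-04), as its ligand gene did, and UVB lay below Active with adjusted p = 0.097, or 0.043 and 0.012 without Quiescent 1 or 3. Plxna2, which transmits signals of secreted and Sema6 ligands, was at 31.6, 33.5 and 21.4 CPM in Quiescent, 63.2, 84.2 and 88.7 in Active and 94.9, 107 and 53.7 in UVB, and rose 2.73-fold (adjusted p = 0.0019) and 2.95-fold (adjusted p = 0.0019).

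Plxna4, a partner of neuropilin 1 in Sema3a signals, was at 39, 27.2 and 127 CPM in Quiescent, 22.9, 30.6 and 33.4 in Active and 11.3, 19.97 and 9.38 in UVB. Quiescent replicate 3 was high, and UVB lay below all the others. It fell 4.76-fold in UVB (log2 fold change -2.25 ± 0.56 SE, adjusted p = 0.0098), and 2.45-fold without Quiescent 3. It also passed as lower in Active without Quiescent 2 (adjusted p = 0.03) and in UVB against Active without Quiescent 3 (adjusted p = 0.032). Plxnd1, the vascular plexin that binds Sema3e, was at 124, 153 and 73 CPM in Quiescent, 83.8, 67.9 and 78.7 in Active and 148, 131 and 141 in UVB. UVB was 1.82-fold above Active (log2 fold change 0.87 ± 0.23 SE, adjusted p = 0.029), a call lost on leaving out any Active library, UVB 1 or UVB 3 (adjusted p up to 0.11), and Active against Quiescent had log2 fold change -0.60 ± 0.23 (adjusted p = 0.0504, and 0.0011 without Quiescent 3). Plxnb2, the plexin with the highest FPKM in Quiescent, was at 194, 212 and 151 CPM in Quiescent, 202, 188 and 194 in Active and 191, 197 and 206 in UVB. All groups overlapped, with log2 fold changes of 0.07 ± 0.13 and 0.09 ± 0.13. With library totals alone, Plxnb2 passed as higher in Active and UVB (0.81 and 0.80, adjusted p = 0.0016 and 0.0019). Plxna1 and Plxna3 passed in none of the comparisons, with log2 fold changes from -0.37 to 0.55. Without Active 1, Plxna1 passed as lower in both Active (adjusted p = 0.0066) and UVB (adjusted p = 0.03), and without Active 3, Plxna3 passed as lower in Active (adjusted p = 0.024) and higher in UVB than in Active (adjusted p = 0.029).

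Neuropilins are co-receptors that hold secreted semaphorins and also bind vascular growth factor. Nrp1 fell in Active, where 29.2% of all genes were lower. Both were higher in UVB than in Active, where 14.8% of all genes were higher. Nrp1 was at 175, 218 and 204 CPM in Quiescent, 83.9, 112 and 109 in Active and 168, 182 and 246 in UVB, so that Active lay below both overlapping groups. It fell with a log2 change of -0.97 ± 0.18 in Active (adjusted p = 0.0015) and was 1.96-fold higher in UVB than in Active (adjusted p = 0.0071), and library totals alone did not call the fall (adjusted p = 0.27). Nrp2 was at 76.7, 121 and 49.2 CPM in Quiescent, 49.7, 61.5 and 70.6 in Active and 108, 133 and 125 in UVB. UVB was 2.02-fold above Active (log2 fold change 1.01 ± 0.29 SE, adjusted p = 0.035), which was lost whichever of these 6 libraries was left out (adjusted p up to 0.12). Against Quiescent it passed in UVB without Quiescent 2 (log2 fold change 0.95, adjusted p = 0.0097) or with library totals alone (adjusted p = 0.0063), and it passed as lower in Active without Quiescent 3 (adjusted p = 0.025). The means of Nrp1, Nrp2 and Plxnd1 were lowest in Active, as were the endothelial and fibroblast marker sums given above. Those sums were highest in Quiescent, whereas Nrp2 and Plxnd1 had their highest means in UVB and Nrp1 was alike in both. The part of these sums was not tested.

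**Figure D3:**
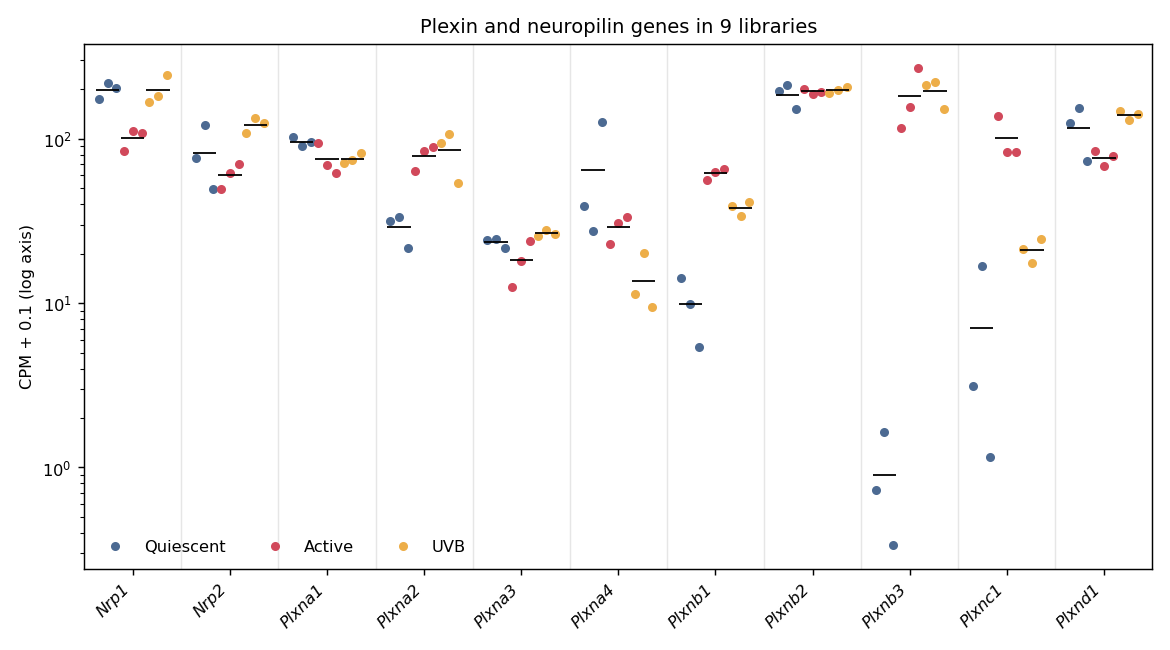
Level of the 11 plexin and neuropilin genes in each library, in CPM plus 0.1 on a log axis, with a black line at the group mean. Plxnb3 is near 1 CPM in Quiescent and above 100 in every Active and UVB library, and Plxnc1 is highest in Active.

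Ephrins are the membrane-tethered ligands. Of 8 tested, 1 was higher and 1 lower in Active (29.1% and 29.2% of all genes), and 2 were higher and 1 lower in UVB (25.8% and 23.2% of all genes). EdgeR and DESeq2 called 0 in UVB against Active, where 2 had an unadjusted p under 0.05. Efna1, a ligand of EphA2 found on vessels and epithelia, was at 33.5, 21 and 20.8 CPM in Quiescent, 6.14, 5.58 and 4.99 in Active and 8.48, 3.94 and 10.3 in UVB. All Quiescent libraries lay above the rest, with a fall of 4.51-fold in Active (log2 fold change -2.17 ± 0.35 SE, adjusted p = 7.5e-04) and 3.32-fold in UVB (adjusted p = 0.0033). Efnb1, an X-linked ligand of EphB receptors, was at 39.6, 29.4 and 40.9 CPM in Quiescent, 50.4, 52.1 and 64.1 in Active and 54.9, 62.4 and 80.6 in UVB, without overlap. It rose 1.52-fold in Active (log2 fold change 0.60 ± 0.18 SE, adjusted p = 0.02) and 1.8-fold in UVB (adjusted p = 0.005), and the Active call was lost without Quiescent 2 (adjusted p = 0.062) or Active 3 (adjusted p = 0.06). Efna5 was at 21.7, 31 and 19.1 CPM in Quiescent, 29.1, 29.3 and 40.5 in Active and 63.9, 48.7 and 37.4 in UVB, and rose 2.09-fold in UVB (log2 fold change 1.06 ± 0.25 SE, adjusted p = 0.0074). In Active it overlapped Quiescent (adjusted p = 0.14, and 0.046 without Quiescent 2). Efna2, Efna3, Efna4, Efnb2 and Efnb3 passed in no comparison, with log2 fold changes between -0.82 and 1.28. Of these, Efna4 passed as lower in Active without Quiescent 2 (adjusted p = 0.044), Efnb3 as higher in UVB without Quiescent 2 (adjusted p = 0.044), and Efnb2 without Active 3 as lower in Active (adjusted p = 0.013) and higher in UVB than in Active (adjusted p = 0.012).

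Eph receptors of the A class, 7 of 9 tested, were higher in 3 and lower in 2 cases in Active (29.1% and 29.2% of all genes). In UVB against Quiescent 3 were higher (25.8% of all genes) and 0 were lower by edgeR, by DESeq2 or at an unadjusted p under 0.05. Epha7 was at 0.586, 0.358 and 0.295 CPM in Quiescent, 8.2, 6.96 and 11 in Active and 6.55, 6.4 and 4.79 in UVB. Every Active and UVB library exceeded every Quiescent one, 20.3-fold in Active (log2 fold change 4.35 ± 0.34 SE, adjusted p = 1.6e-05) and 13.8-fold in UVB (adjusted p = 5.7e-05). Epha2, the receptor of ephrin-A1, was at 18.3, 14.8 and 6.08 CPM in Quiescent, 57.6, 47.2 and 70.9 in Active and 43.2, 39.5 and 24.9 in UVB, again without overlap. It rose 4.47-fold in Active (log2 fold change 2.16 ± 0.38 SE, adjusted p = 0.0013) and 2.74-fold in UVB (adjusted p = 0.012), while its ligand gene Efna1 fell in both. Epha5 was found at 0.0391, 0 and 0.118 CPM in Quiescent, 1.9, 1.7 and 1.55 in Active and 0.284, 0.171 and 0.236 in UVB. With 146 fragments in Active and 3 in Quiescent, the ratio was 34.3 (95% interval for counting error only, 11.5 to 168; adjusted p = 2.2e-04), and the fitted fold of 30.9 became 62.3 without Quiescent 3. Epha5 had 21 fragments in UVB, a ratio of 4.58 to Quiescent (1.37 to 24.0; adjusted p = 0.036), a call lost on leaving out any library but Quiescent 3 (up to 0.11), and was 7.32-fold lower in UVB than in Active (adjusted p = 0.0063).

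Epha3 and Epha4, receptors known from axon guidance, had their lowest means in Active. Epha3 was at 8.09, 6.5 and 7.91 CPM in Quiescent, 2.06, 0.943 and 1.27 in Active and 5.83, 4.08 and 12.4 in UVB, so that Quiescent and UVB overlapped above Active. It fell 5.24-fold in Active (log2 fold change -2.39 ± 0.45 SE, adjusted p = 0.0019) and was 5.18-fold higher in UVB than in Active (adjusted p = 0.0083). Epha4 was at 10.9, 10.9 and 8.21 CPM in Quiescent, 5.11, 3.52 and 2.7 in Active and 7.88, 4.55 and 15.2 in UVB. Its fall in Active, 2.64-fold (log2 fold change -1.40 ± 0.43 SE, adjusted p = 0.02), was lost without Quiescent 1 or Active 2 or 3 (adjusted p up to 0.065) and with library totals alone (adjusted p = 0.21). UVB overlapped both groups and passed as higher than Active without UVB 2 (adjusted p = 0.02). Epha10, an Eph without kinase activity, had 79 fragments in UVB and 1 in Active, a ratio of 73.4 (95% interval 12.8 to 2935). That call (adjusted p = 0.021) was lost on leaving out any Active library or UVB 1 (up to 0.082), and the fitted fold ran from 35.6 to 179. Against Quiescent, UVB passed without Quiescent 2 (adjusted p = 0.0063) and not with all libraries (0.055). Epha1, whose exons share 6.01% of their bases with Zyx on the other strand, passed in no comparison, and Epha6 and Epha8 had too few fragments to test.

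EphB receptors, which bind the ephrin-B ligands, were higher in 2 of 5 cases in Active (29.1% of all genes) and 1 of 5 in UVB (25.8%), and 0 were lower by edgeR or DESeq2, with 1 at an unadjusted p under 0.05 in Active. Ephb2 was at 26.6, 21.8 and 27.7 CPM in Quiescent, 61.4, 84.9 and 92.2 in Active and 79.9, 95.6 and 61.3 in UVB, with no overlap. It rose 3.13-fold in Active (log2 fold change 1.65 ± 0.21 SE, adjusted p = 1.8e-04) and 3.11-fold in UVB (adjusted p = 3.1e-04), together with its ligand gene Efnb1. Ephb6, also without kinase activity, rose with a log2 change of 0.73 ± 0.24 in Active (adjusted p = 0.027), a call lost without Active 3 (adjusted p = 0.086). Ephb4, the receptor of veins, was at 75, 53.4 and 50.1 CPM in Quiescent, 54, 48.3 and 59.4 in Active and 59.6, 53.5 and 61.9 in UVB. Ephb3 was at 79.7, 68.4 and 51.9 CPM in Quiescent, 30.5, 47.3 and 59.2 in Active and 54.5, 44.7 and 51.7 in UVB. Both overlapped between all groups, and the largest of their log2 fold changes was -0.55 ± 0.24 (adjusted p = 0.079, and 0.042 and 0.027 without Quiescent 3 or Active 3), but Ephb4 read 0.60 in Active and 0.69 in UVB with library totals alone. Ephb1 passed in no comparison.

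**Figure D4:**
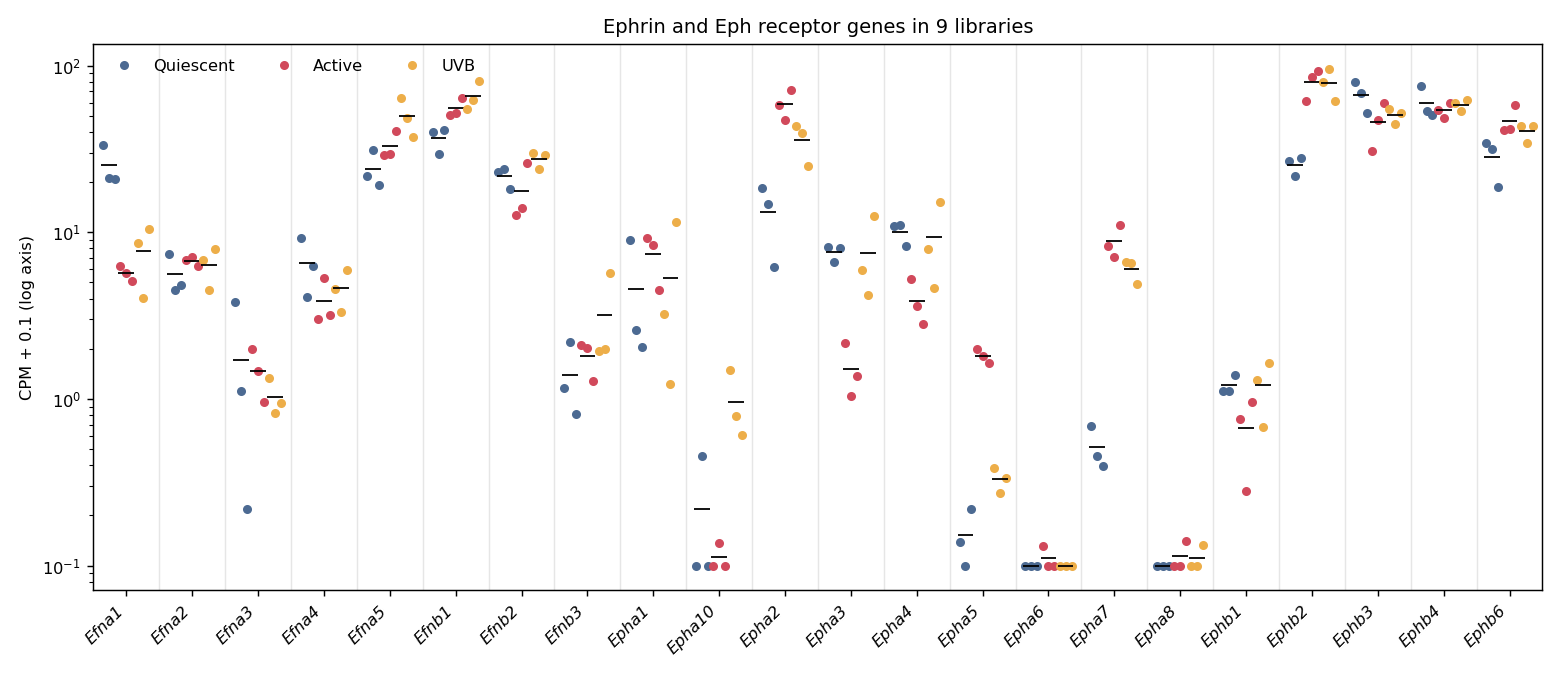
Level of the 8 ephrin and 14 Eph receptor genes in each library, in CPM plus 0.1 on a log axis, with a black line at the group mean. Epha2, Epha7 and Ephb2 lie higher in all Active and UVB libraries than in Quiescent, Efna1 lies lower, and Epha5 is highest in Active.

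Of 6 slits and Robo receptors tested, 5 were lower in Active than in Quiescent, where 29.2% of all genes were lower, and Slit1 was higher, where 29.1% were, but Robo2 did not pass with library totals alone. In UVB against Quiescent 1 was higher and 1 lower (25.8% and 23.2% of all genes), and in UVB against Active 4 were higher (14.8% of all genes). Slit3, a secreted Robo ligand, stood at 399, 368 and 390.3 CPM in Quiescent, 12.8, 8.92 and 8.75 in Active and 102, 69.7 and 210.2 in UVB libraries. The 3 groups did not overlap, with UVB between the others. It was 38-fold lower in Active (log2 fold change -5.25 ± 0.42 SE, adjusted p = 1.8e-05), 3.04-fold lower in UVB (adjusted p = 0.0059, and 0.054 with library totals alone) and 12.5-fold higher in UVB than in Active (adjusted p = 9.2e-04). Slit2, which shares the Robo receptors, was at 109, 102 and 103 CPM in Quiescent, 8.38, 4.86 and 7.19 in Active and 104, 73.3 and 166 in UVB. Here UVB spanned the Quiescent level (log2 fold change 0.13 ± 0.28 SE, adjusted p = 0.74). With library totals alone, Slit2 passed as higher in UVB than in Quiescent (log2 fold change 0.85, adjusted p = 0.028). Active was 15.4-fold below Quiescent (log2 fold change -3.94 ± 0.32 SE, adjusted p = 2.0e-05) and UVB 16.8-fold above Active (adjusted p = 3.6e-04). Slit1 was low in all libraries, at 0.156, 0.179 and 0.236 CPM in Quiescent, 1.96, 2.9 and 4.37 in Active and 6.93, 9.59 and 2.73 in UVB. It moved against its relatives, with no overlap, rising 16-fold in Active (log2 fold change 4.0 ± 0.59 SE, adjusted p = 4.6e-04) and 33.4-fold in UVB (adjusted p = 2.3e-04), and it passed as higher in UVB than in Active without UVB 3 (adjusted p = 0.035).

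Among the UVB libraries, Slit2 and Slit3 were highest in replicate 3 and lowest in replicate 2, and so was the fibroblast marker sum, at 28848, 21806 and 34005 CPM. The fibroblast sum was also lowest in Active, where both slits were lowest. In Quiescent it was 333985 to 450889 CPM, far above every UVB library. Slit2, in contrast, was not called in UVB against Quiescent with TMM scaling (log2 fold change 0.13), and Slit3 had a log2 fold change of -1.60. The part of the fibroblast sum in the slit values was not tested.

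Robo4, the endothelial member of the receptor family, was at 13.9, 10.1 and 8.44 CPM in Quiescent, 1.03, 0.58 and 1.47 in Active and 6.11, 7.4 and 9.08 in UVB. Active lay below all other libraries, 10.5-fold below Quiescent (log2 fold change -3.40 ± 0.37 SE, adjusted p = 8.0e-05), and UVB was 7.33-fold above Active (adjusted p = 0.0017). The endothelial marker sum followed the same order of groups, and its part in the Robo4 values was not tested. Robo2 was at 66.5, 83.2 and 37.5 CPM in Quiescent, 28, 14.4 and 25.1 in Active and 58.1, 45.2 and 89.7 in UVB, with Active below both overlapping groups. It fell 2.77-fold in Active (log2 fold change -1.47 ± 0.37 SE, adjusted p = 0.0081), which library totals alone did not call (adjusted p = 0.11), and was 2.86-fold higher in UVB than in Active (adjusted p = 0.021), lost without Active 2 (adjusted p = 0.076) or UVB 3 (adjusted p = 0.056). Robo1, its neighbour on chromosome 16, was at 59, 65.4 and 44.1 CPM in Quiescent, 17, 10.5 and 9.61 in Active and 21.6, 12.1 and 47.1 in UVB, and fell 4.54-fold in Active (log2 fold change -2.18 ± 0.46 SE, adjusted p = 0.0034). In UVB it passed as lower than Quiescent without UVB 3 (adjusted p = 0.004) and as higher than Active without UVB 2 (adjusted p = 0.028). Robo3 had no fragment in Quiescent and 5 and 10 fragments in Active and UVB, too few to test.

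Netrins, laminin-like ligands, were lower in 3 of 4 cases in Active (29.2% of all genes) and in 2 of 4 in UVB (23.2%), and 0 were higher than in Quiescent by edgeR, by DESeq2 or at an unadjusted p under 0.05, but Ntn3 passed as higher in UVB with library totals alone (adjusted p = 0.046). Ntn1, the ligand of Dcc and Unc5 receptors, was at 341, 344 and 193 CPM in Quiescent, 52.1, 92.5 and 73.1 in Active and 112, 145 and 165 in UVB libraries. The groups did not overlap, with UVB again in between. It fell 4.04-fold in Active (log2 fold change -2.01 ± 0.29 SE, adjusted p = 3.6e-04) and 2.08-fold in UVB (adjusted p = 0.013), the second being lost without UVB 1 (adjusted p = 0.0510) and with library totals alone (adjusted p = 0.32). UVB was 1.94-fold above Active (adjusted p = 0.038), which was lost whichever of these 6 libraries was left out (adjusted p up to 0.12). Ntn4, a netrin of basement membranes, was at 97.6, 89.99 and 60.00 CPM in Quiescent, 13.1, 16 and 20.4 in Active and 19.1, 11 and 27.7 in UVB. Quiescent lay above the rest, and the fall was 5.01-fold in Active (log2 fold change -2.32 ± 0.34 SE, adjusted p = 4.3e-04) and 4.28-fold in UVB (adjusted p = 0.0011). Ntn5 was at 2.46, 1.91 and 0.65 CPM in Quiescent, 0.0935, 0 and 0.164 in Active and 0.315, 0.274 and 0.844 in UVB and was 19-fold lower in Active (log2 fold change -4.25 ± 0.91 SE, adjusted p = 0.0035), 30.8-fold without Active 3. It shares 23.4% of its exonic bases with Sec1 on the other strand. Without the strand setting of the counting, reads on those shared bases cannot be told from those of Sec1. Ntn5 passed as lower in UVB without Quiescent 3 (adjusted p = 0.043) or UVB 3 (adjusted p = 0.045).

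Of the netrin receptors, 3 could be tested, and 1 passed in 1 comparison, as higher in UVB than in Active (14.8% of all genes). Unc5b, a vascular netrin receptor and the one with the most fragments here, was at 28.9, 27.8 and 17.2 CPM in Quiescent, 19.6, 21.6 and 24.4 in Active and 35.5, 28.9 and 50.9 in UVB. UVB was 1.76-fold above Active (log2 fold change 0.81 ± 0.25 SE, adjusted p = 0.046), kept only when the library left out was Quiescent 3 or UVB 2 (otherwise adjusted p up to 0.14). It passed as higher in UVB than in Quiescent without UVB 2 (adjusted p = 0.034). Unc5a and Unc5c passed in no comparison. Dcc and Unc5d, with at most 14 and 12 fragments in a library, did not pass the filter and were not in the fit. Unc5d had 24 fragments in Quiescent and 1 in Active, a ratio of 34.1 (95% interval for counting error only, 5.55 to 1400.4).

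**Figure D5:**
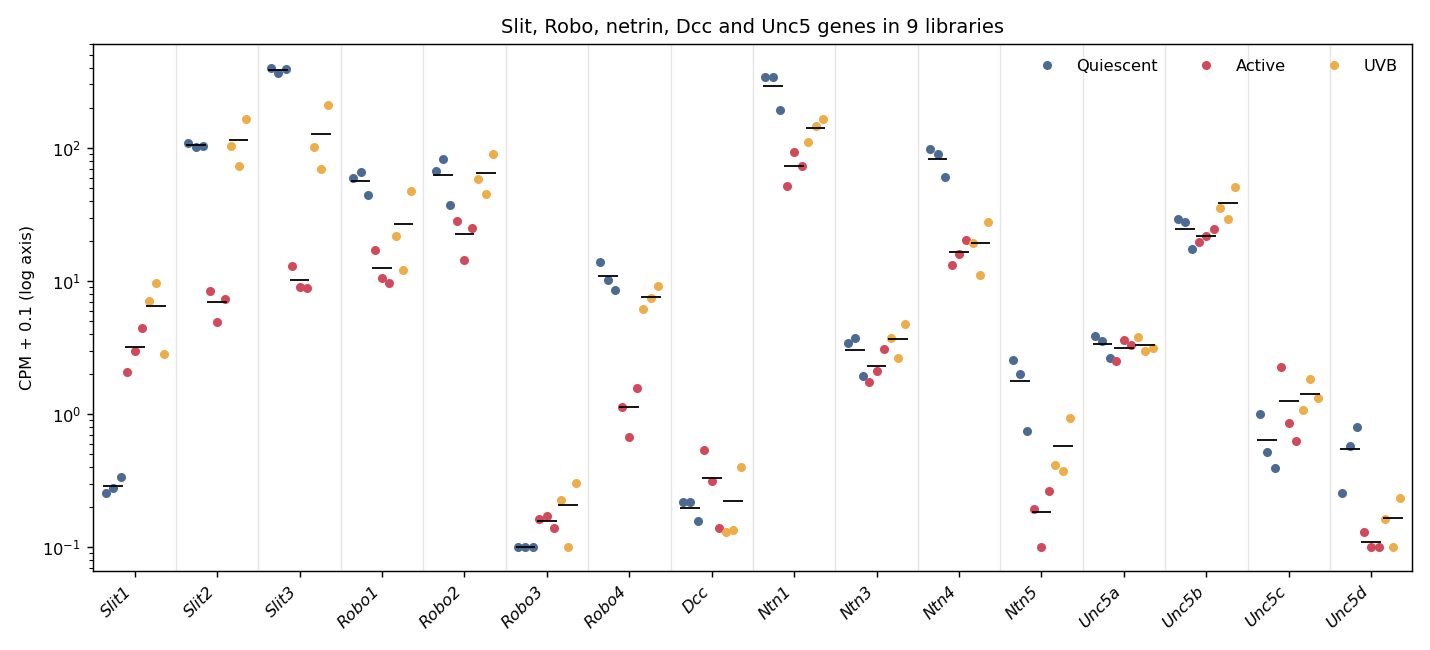
Level of the 16 slit, Robo, netrin, Dcc and Unc5 genes in each library, in CPM plus 0.1 on a log axis, with a black line at the group mean. Slit2, Slit3 and Robo4 are lowest in Active, Slit1 is lowest in Quiescent, and Ntn1 and Ntn4 are highest in Quiescent.

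Other genes of these pathways, a list of 56 effectors, co-receptors and processing enzymes named from general knowledge, were read from the same fit. Of 53 tested, 19 were higher and 19 lower in Active against Quiescent, where 29.1% and 29.2% of all genes were. In UVB against Quiescent 23 were higher and 12 lower (25.8% and 23.2% of all genes), and in UVB against Active 16 were higher and 2 lower (14.8% and 9.19%). Kalrn, an exchange factor for Rac downstream of Eph receptors, was at 5.98, 7.81 and 4.78 CPM in Quiescent, 28.8, 30.1 and 35.9 in Active and 33.2, 32.9 and 31.2 in UVB and rose 5.11-fold and 5.24-fold (adjusted p = 1.6e-05 and 3.3e-05). Gpc1, a glypican that binds slits, was at 23, 20.8 and 6.79 CPM in Quiescent, 675, 643 and 583 in Active and 271, 352 and 175 in UVB, with no overlap, and rose 37.5-fold in Active (adjusted p = 3.4e-05). Met, a receptor kinase that partners B-type plexins, rose 11.1-fold in Active (adjusted p = 3.8e-05) and was 5.85-fold lower in UVB than in Active (adjusted p = 0.0014). Srgap3, a signalling protein that binds Robo1, was at 45.7, 47.2 and 52.7 CPM in Quiescent, 12.1, 13.4 and 15.9 in Active and 23.2, 17.2 and 21.9 in UVB, below Quiescent in all 6 others (3.51-fold lower in Active, adjusted p = 2.5e-05). Flrt2, which binds Unc5 receptors, fell 25.3-fold in Active (adjusted p = 2.9e-05) and was 5.29-fold higher in UVB than in Active (adjusted p = 0.0039). Rgma, a ligand of the Dcc relative neogenin, had log2 fold changes of -1.93 in Active against Quiescent and 1.18 in UVB against Active (adjusted p = 7.3e-05 and 0.0055). Nck2, an adaptor of Eph and Robo signals, rose 3.18-fold and 3.14-fold against Quiescent (adjusted p = 4.2e-05 and 8.4e-05). Its relative Nck1 fell 2.92-fold in Active (adjusted p = 3.3e-04) and 2.49-fold in UVB (adjusted p = 0.0012).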

How the data were processed

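The data are 9 RNA-seq libraries from cells sorted from mouse skin. Groups (Quiescent, Active, UVB; 3 libraries each) and replicate numbers come from the labels. Libraries were made from poly(A)-selected RNA with a directional kit, per the labels' protocols. The submitters' processing notes name cutadapt 1.8, TopHat2 2.0.13, Cuffdiff 2.2.1 and the build mm10. The annotation and strand setting were not given in the sources used here. Per gene and library, the deposited table holds estimated counts of fragments before scaling and the authors' FPKM after their own scaling between libraries, per the file headers.

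The rounded counts went into edgeR 4.0.16 (R 4.3.3), with TMM scaling, filterByExpr, 1 quasi-likelihood fit across the 9 libraries with group means, and Benjamini-Hochberg adjustment over 15078 genes (8283 were removed by the filter). Of the 69 guidance genes, 64 were tested, and Ntn3 alone had values that were not whole. The coefficient of variation between replicates was 0.28. Replicates differed beyond sampling noise (chi-square per degree of freedom 21.2 to 98.8). Poly(A) selection and trimming act on all libraries alike, while fragments of overlapping genes are divided by the counting model. Members were matched to RefSeq and GENCODE M21 (GRCm38) by symbol. Intervals cover counting error only, since copies made by amplification are not independent molecules.

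The genes and lists were chosen with earlier results of these data known, and nothing here is independent support for them. Values in every library are given for the members with the largest non-overlapping changes (up to 3 per family, comparison and direction, at least 1 CPM in the higher group) and the 2 with the highest FPKM per family and group. Pathway genes were listed by smallest adjusted p in each comparison and direction, and only a part of that list is described. Vav3, Rasa1, Dock1, Adam10, Mical1, Ntng2 and Flrt1 were on it as well and are left out. Alternatives were scaling by RLE, upper quartile or library total alone, no filter or at least 50 counts in 3 libraries, DESeq2 1.42.0, limma 3.58.1 on log2(FPKM + 1) and log2(FPKM + 0.1), the 6 libraries of a comparison alone, the replicate number as a block, and leaving out each library. The fit was also run on simulated counts in which few genes changed, as many up as down. Such counts cannot test the TMM assumption that most genes are unchanged. Promoter sequences were read from a RefSeq table and no genome sequence was used.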

Additional observations from a re-analysis of the deposited data

How the results depend on the processing

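With library totals alone as the scale, 38 guidance genes were higher and 6 lower in UVB against Quiescent, beside 8746 and 1246 of all 15078 genes. In UVB against Active 1 was lower, beside 1534 of all genes. Of the guidance gene values that passed in the reported fit or on that scale, 6 changed sign, and values that passed on neither did too. The 6 were as follows. Ephb4 read 0.60 and Sema3c 0.68 (log2) in Active against Quiescent, and Ephb4 read 0.69, Nrp1 0.72, Sema4b 0.24 and Sema6b 0.58 in UVB against Quiescent. This scale moves the median of all genes in the same direction, and Quiescent had the lowest scaling factors. Without a change of sign, 6 guidance genes in Active and 17 in UVB against Quiescent passed on this scale and not in the reported fit. The 2 genes lower in UVB against Active became 1 with no filter, 0 with the strict filter, which tests fewer genes, 5 with only the 6 libraries compared, and 1 with the replicate block. At 0, edgeR's test is meant, and DESeq2 called 2. Over all genes, the lower calls went from 1386 to 1203 with no filter and 1263 with the strict filter. They were 1492 with only the 6 libraries compared and 1004 with the replicate block. Leaving out 1 library gave 8 to 16 higher guidance genes in UVB against Active and 1 to 5 lower ones. Over all genes it gave 999 to 2548 higher and 453 to 1678 lower. The counts of Active against Quiescent stayed within 1.5 times of the reported ones under all alternatives tried, as did those of UVB against Quiescent except with library totals alone. With the replicate number as a block, 18 were higher and 20 lower in Active against Quiescent. There were 17 and 9 in UVB against Quiescent, and 14 and 1 in UVB against Active. The counts over all genes in these comparisons were 4135 and 4088, 3580 and 3229, and 1826 and 1004. Libraries with the same number deviated together in some pairs and apart in others (correlations of -0.17 to 0.23), so the numbers were not taken to pair the samples. Calls of genes near the threshold depended on single libraries, as given beside each, and genes with few fragments, such as Epha5, Epha10 and Ntn5, are limited by depth.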

Other observations

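Several guidance genes lie within 1000 kb of each other, and their calls against Quiescent were not always alike. On chromosome 3, Efna1 was lower in Active and UVB, while Efna3, 32.8 kb away, and Efna4, 10.4 kb beyond it, passed in neither. On chromosome 4, Ephb2 was higher in both, and Epha8, 93.4 kb away, was too low to test. On chromosome 9, Robo4 was lower in Active. Robo3 lies on the other strand, with its end 553 bases from the end of Robo4, and had no fragment in Quiescent. On the X chromosome, Plxnb3 was higher in both, and Plxna3, 556.6 kb away, passed in neither. On chromosome 16, Robo1 and Robo2, 845.7 kb apart, were both lower in Active.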
